A study of Mus musculus with 10 samples.

Results

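The transforming growth factor beta (TGF-beta) and bone morphogenetic protein (BMP) pathway was followed in mouse heart through 10 genes: the ligands Tgfb1, Tgfb2 and Tgfb3, the receptors Tgfbr1 and Tgfbr2, the co-receptor Eng, the inhibitory SMAD genes Smad6 and Smad7, and the target genes Id1 and Id3. They were found by symbol, each through its Ensembl gene ID, and all 10 were present among the 31655 genes of the deposited count table. RNA sequencing covered 10 heart libraries in 2 groups of 5. The LPS animals were gavaged with water and then given 1 intraperitoneal dose of 10 mg/kg lipopolysaccharide (LPS, the endotoxin of Gram-negative bacteria). The baicalin plus LPS animals were instead gavaged for 14 days, at 100 mg/kg, with baicalin, a flavone glucuronide from Scutellaria root, before the same LPS dose. Hearts were taken 72 hours after LPS. All 10 libraries are labelled as LPS-treated, although the acute-phase values given further on put the labels of LPS libraries 1, 2 and 3 in doubt. The saline group of the design was not analysed here. The sources used here state no strain, age or sex and do not link libraries to individual mice. P-values measure the spread between libraries, which may be in part technical.

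TGF-beta ligands are secreted in a latent form and, once released, bring together the type II receptor encoded by Tgfbr2 and the type I receptor encoded by Tgfbr1, which phosphorylates SMAD2 and SMAD3. BMP ligands act through other type I and type II receptors on SMAD1, SMAD5 and SMAD9, and SMAD4 is the shared partner of both branches. Endoglin, the product of Eng, is a co-receptor enriched on endothelial cells. SMAD6 and SMAD7 are feedback inhibitors, and ID1 and ID3 are helix-loop-helix proteins without a DNA-binding region whose genes respond to BMP. In heart the pathway is known for fibroblast activation and matrix deposition, and for the maintenance of vessels.

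RefSeq promoter windows (GRCm38.p6) matched 7 of the 10 genes by symbol. Tgfb1, Tgfb2 and Tgfbr2 are shown because LPS libraries 1, 2 and 3 were lowest for each of them, and Eng because it had the smallest p of the 10 genes. Each sequence is the 250 bases before the annotated start, 5′ to 3′ on the gene's strand. Capitals mark every match, on either strand, to a SMAD box (CAGAC), a GC box (GGGCGG) or a TATA element (TATAAA).
Tgfb1 (chr7:25686752-25687001, plus strand): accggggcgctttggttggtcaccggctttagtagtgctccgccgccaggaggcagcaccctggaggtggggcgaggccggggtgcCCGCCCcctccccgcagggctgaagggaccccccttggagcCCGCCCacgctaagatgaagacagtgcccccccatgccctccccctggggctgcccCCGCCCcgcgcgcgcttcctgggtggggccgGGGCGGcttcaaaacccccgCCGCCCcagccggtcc
Tgfb2 (chr1:186705990-186706239, minus strand): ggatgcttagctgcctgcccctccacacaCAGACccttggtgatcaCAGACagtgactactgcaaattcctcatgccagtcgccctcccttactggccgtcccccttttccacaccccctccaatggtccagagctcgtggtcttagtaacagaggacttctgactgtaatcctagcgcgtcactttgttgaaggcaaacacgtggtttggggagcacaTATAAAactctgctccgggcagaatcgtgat
Tgfbr2 (chr9:116175364-116175613, minus strand): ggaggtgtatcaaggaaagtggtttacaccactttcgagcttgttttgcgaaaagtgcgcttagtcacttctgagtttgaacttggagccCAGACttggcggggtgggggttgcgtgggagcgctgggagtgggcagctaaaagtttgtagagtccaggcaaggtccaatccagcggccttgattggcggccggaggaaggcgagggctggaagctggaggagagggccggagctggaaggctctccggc
Eng (chr2:32646345-32646594, plus strand): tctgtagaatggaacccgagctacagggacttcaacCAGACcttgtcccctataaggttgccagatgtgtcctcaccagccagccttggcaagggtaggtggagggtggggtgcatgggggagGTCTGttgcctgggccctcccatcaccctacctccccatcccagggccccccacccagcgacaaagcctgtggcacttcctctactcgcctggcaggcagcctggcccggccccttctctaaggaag

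The Tgfb1 window is 75.2% G or C and holds 5 GC boxes and no SMAD box or TATA element. The Tgfb2 window is 53.6% G or C and holds 2 SMAD boxes and 1 TATA element, which begins 31 bases before the start. The Tgfbr2 window holds 1 SMAD box and the Eng window 2. Of 32851 mouse promoter windows of the same length, 42.2% hold a SMAD box, 32.7% a GC box and 12.4% a TATA element. An AP-1 site (TGANTCA, in 6.75% of windows), a cyclic AMP response element (TGACGTCA, 1.55%) and a GC-rich BMP element (GGCGCC, 9.59%) were also searched on either strand, and none of the 4 windows holds one of them. No motif of the 6 searched was in all 3 of the Tgfb1, Tgfb2 and Tgfbr2 windows. These matches describe letters only.

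Library totals ran from 39396357 to 75744274 counts. The tissue is labelled as cardiac. Across the LPS libraries 8 cardiomyocyte markers summed to between 32598 and 68541 CPM (counts scaled to a common library size of 1e6). With baicalin the sum was between 37955 and 48312 CPM. For 5 of these 8 markers LPS libraries 1, 2 and 3 were the 3 highest of the 10, against 9.55% of all genes tested. LPS libraries 1, 2 and 3 stood apart from the rest. The acute-phase serum amyloid gene Saa3 was at 1.32 to 2.37 CPM in these 3, against 365 and 232 CPM in LPS libraries 4 and 5. With baicalin it ranged from 72.6 to 186 CPM. Lcn2, which encodes the neutrophil and acute-phase protein lipocalin, was at 5.28 to 6.41 CPM in the 3 libraries and 135 to 1012 CPM in the other 7. Serpina3n, an acute-phase protease inhibitor gene, was at 11.4 to 14.7 CPM against 234 to 935 CPM. These values go against the label of LPS treatment for the 3 libraries, and whether the label is right was not tested. Each LPS mean and each fold change rests on it. The name LPS group means the libraries labelled LPS throughout. For the 10 genes, the plot of fold changes shows the values without the 3 libraries (which leaves 2 labelled LPS), without LPS library 4, the highest for Saa3, and without baicalin plus LPS libraries 2 and 3. Some of these values are also given in the text.

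No gene of the 10 differed between the groups beyond the spread of the libraries in the main test, edgeR. In edgeR's quasi-likelihood test, 0 of 10 passed a Benjamini-Hochberg adjusted p of 0.05 over the 16850 genes tested, where 0% of all genes passed. At an unadjusted p under 0.05 the count was again 0 of 10, against 11.1% of all genes (5.26% higher and 5.88% lower with baicalin). The groups overlapped for each of the 10, whereas 2.46% of all genes had groups that did not overlap. DESeq2 and limma-voom called 0 of the 10, against 1.06% and 0% of all genes. Limma-voom with sample quality weights called Tgfb2, Tgfbr2 and Eng, where it called 17.6% of all genes. Fold changes are log2 values of baicalin plus LPS over LPS. Of the 10, 4 were positive and 6 negative with a median of -0.06, beside a median of 0.00 over all genes tested. All 10 genes passed the filter on low counts.

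**Figure D1:**
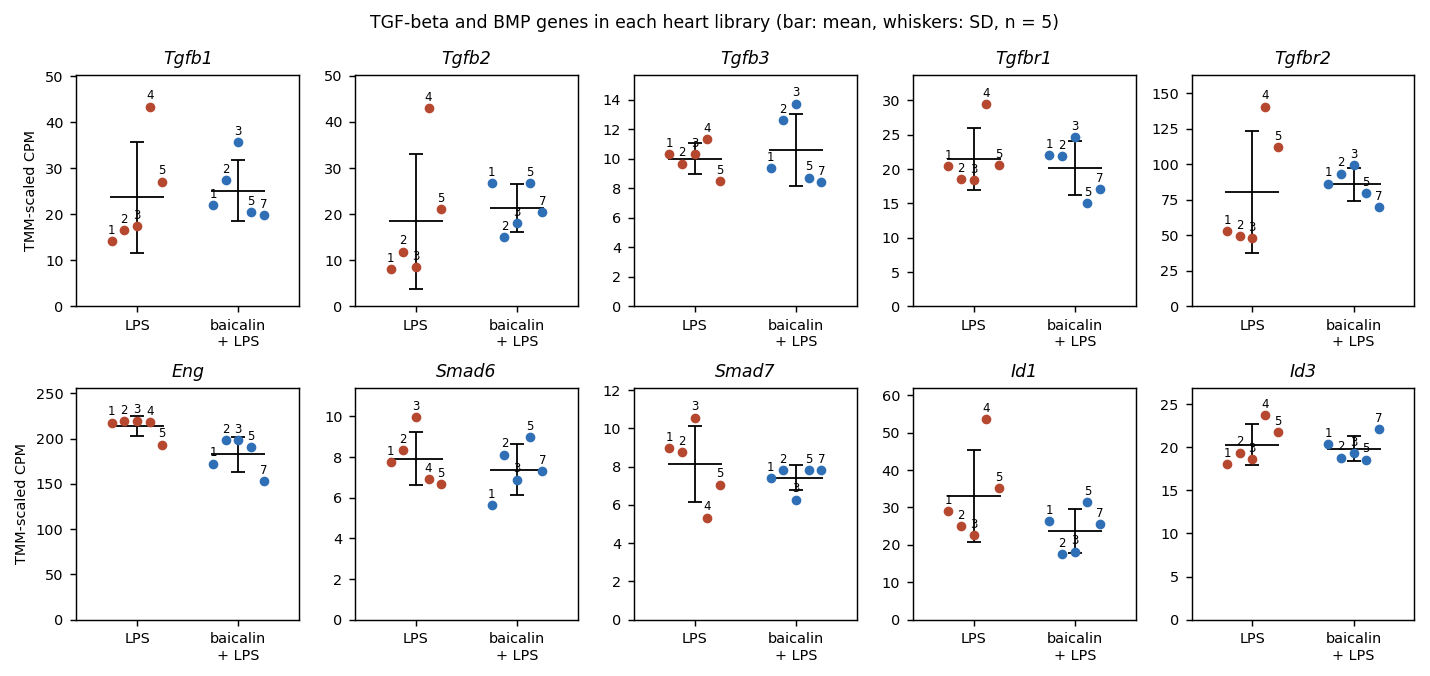
TMM-scaled CPM of the 10 genes in each library, labelled by library number, with the mean and SD of each group of 5. The points of the groups overlap in all 10 panels, and LPS library 4 is the highest of the 10 libraries for Tgfb1, Tgfb2, Tgfbr1, Tgfbr2, Id1 and Id3.

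Levels between genes can be compared only per length, on the deposited FPKM scale. Over the 10 libraries Eng had the highest level, 49.0 ± 6.55 FPKM (SD, n = 10). Id1 followed with 24.7 ± 10.4 FPKM. Eng was above Id1, and Id1 above Id3, in each of the 10 libraries. Id3 (11.3 ± 1.90 FPKM) and Tgfbr2 (10.4 ± 4.53 FPKM) could not be ordered, since Id3 was the higher in only 6 of 10. Tgfb1 had 4.99 ± 2.29 FPKM, Tgfb2 3.53 ± 2.03, Tgfbr1 3.24 ± 0.892 and Tgfb3 3.08 ± 0.766 FPKM, with overlapping SDs. Tgfb1 was above Tgfb2 in 8 of 10 libraries, and above Tgfbr1 and Tgfb3 in all but LPS library 1. Tgfb2 was above Tgfbr1 in only 5 of 10, and Tgfbr1 above Tgfb3 in only 5 of 10, so Tgfb2, Tgfbr1 and Tgfb3 could not be ordered. By the mean over the 10 libraries the inhibitory SMAD genes were lowest, Smad6 at 2.38 ± 0.299 and Smad7 at 1.71 ± 0.220 FPKM, with Smad6 above Smad7 in 10 of 10. The order did not hold in each library: Tgfb2, at 1.29 and 1.28 FPKM, was below both in LPS libraries 1 and 3. Transcript of the type II receptor thus exceeded that of the type I receptor, and the co-receptor exceeded both, in all libraries.

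Tgfb1 encodes the ligand best known from leukocytes, platelets and scarring tissue (ENSMUSG00000002603, GRCm38 chromosome 7 from 25687002 to 25705077). Its TMM-scaled level was 14.1, 16.6, 17.4, 43.4 and 27.1 CPM in LPS libraries 1 to 5. With baicalin it was 22.1, 27.4, 35.6, 20.6 and 19.9 CPM in libraries 1, 2, 3, 5 and 7. LPS libraries 1, 2 and 3 held the lowest values of the 10 and LPS library 4 the highest, so the LPS group enclosed the whole baicalin group. The fold change was 0.08 ± 0.30 (SE, edgeR adjusted p = 0.943). Without LPS libraries 1, 2 and 3 it was -0.48, and without LPS library 4 it was 0.42, neither past the threshold.

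Tgfb2 encodes the ligand with a central part in heart valve development (ENSMUSG00000039239, chromosome 1 from 186622792 to 186705989). It had 8.09, 11.9, 8.54, 42.9 and 21.0 CPM in the LPS libraries and 26.7, 15.0, 18.0, 26.7 and 20.4 CPM with baicalin. Again LPS libraries 1, 2 and 3 were the lowest of the 10 and LPS library 4 the highest. This gave a fold change of 0.21 ± 0.43 (edgeR adjusted p = 0.892), -0.57 without LPS libraries 1, 2 and 3, and 0.78 without LPS library 4.

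Tgfb3, whose product shares the receptors of the other ligands, did not follow that pattern (ENSMUSG00000021253, chromosome 12 from 86056745 to 86079041). The LPS libraries had 10.3, 9.68, 10.3, 11.3 and 8.47 CPM and the baicalin plus LPS libraries 9.39, 12.6, 13.7, 8.72 and 8.39 CPM. The highest of the 10 were baicalin plus LPS libraries 2 and 3. A fold change of 0.08 ± 0.16 (edgeR adjusted p = 0.890) became -0.18 when both were left out. Ttll5 overlaps it on the opposite strand with group means of 15.7 ± 2.79 (LPS) and 14.4 ± 1.07 CPM (baicalin plus LPS), and the sources used here do not state whether counting used strand.

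The receptor genes differed in how far they varied. Tgfbr2, the ligand-binding type II receptor (ENSMUSG00000032440, chromosome 9 from 116084293 to 116175360), had 52.9, 49.2, 47.8, 140.4 and 112 CPM in the LPS libraries and 86.4, 93.4, 99.1, 79.6 and 70.1 CPM with baicalin. The first 3 LPS libraries lay below all others and the last 2 above all others, with the baicalin group between them. The difference was 0.09 ± 0.30 (edgeR adjusted p = 0.939), -0.55 without LPS libraries 1, 2 and 3 and 0.39 without LPS library 4. Tgfbr1, the type I kinase receptor (ENSMUSG00000007613, chromosome 4 from 47353222 to 47414931), had 20.5, 18.6, 18.4, 29.4 and 20.6 CPM and, with baicalin, 22.0, 21.9, 24.6, 15.1 and 17.1 CPM. LPS library 4 was the highest, and the other 9 spanned 15.1 to 24.6 CPM. Its fold change was -0.09 ± 0.17 (edgeR adjusted p = 0.876).

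Eng had the smallest p of the 10 (ENSMUSG00000026814, chromosome 2 from 32646595 to 32682669). It had 218, 219, 219.9, 218 and 193 CPM in the LPS libraries and 172, 198, 199, 190.3 and 153 CPM in the baicalin plus LPS libraries. All LPS libraries but library 5 were above every baicalin plus LPS library. The means were 214 ± 11.3 and 183 ± 19.7 CPM (n = 5 each), a fold change of -0.23 ± 0.10 with an edgeR unadjusted p of 0.0505 and an adjusted p of 0.449. Its direction held in every alternative tried, from -0.31 to -0.14, with adjusted p values from 0.0273 to 0.756. The lowest of these came from limma-voom with sample quality weights, which called 17.6% of all genes. Without LPS libraries 1, 2 and 3 the fold change was -0.16. Fpgs overlaps Eng on the opposite strand and had 3.60 to 19.1 CPM over the libraries, far below Eng.

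Most endothelial markers had the direction of Eng. Negative fold changes were found for 10 of the 12 tested and positive ones for 2, Emcn and Ecscr, and the median was -0.40. None passed the adjusted threshold in edgeR, and 6 of 12 (50%) had an unadjusted p under 0.05, all lower with baicalin, against 5.88% of all genes lower at that p. Tie1, an endothelial receptor kinase, had 71.0 ± 9.68 and 48.5 ± 6.36 CPM (-0.55 ± 0.12, edgeR adjusted p = 0.248), and Robo4, a guidance receptor of vessels, 49.6 ± 6.34 and 31.9 ± 4.25 CPM (-0.64 ± 0.12, edgeR adjusted p = 0.201). For Tie1, Robo4 and Esam, 3 of 12 (25%), the groups did not overlap, against 2.46% of all genes. In LPS libraries 4 and 5 these had 86.7 and 61.6 CPM (Tie1), 59.6 and 52.2 CPM (Robo4) and 60.2 and 48.9 CPM (Esam). Flt1, another of the 12, had 200 to 230 CPM in LPS libraries 1, 2 and 3. It had only 103 and 111 CPM in LPS libraries 4 and 5, and 90.0 to 111 CPM with baicalin. The 12 markers summed to between 941 and 1183 CPM in the LPS libraries and between 721 and 990 CPM with baicalin, and none was at 0 in all libraries. Their part in the Eng values was not tested, and in bulk tissue fewer cells of a type and less RNA per cell cannot be told apart.

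**Figure D2:**
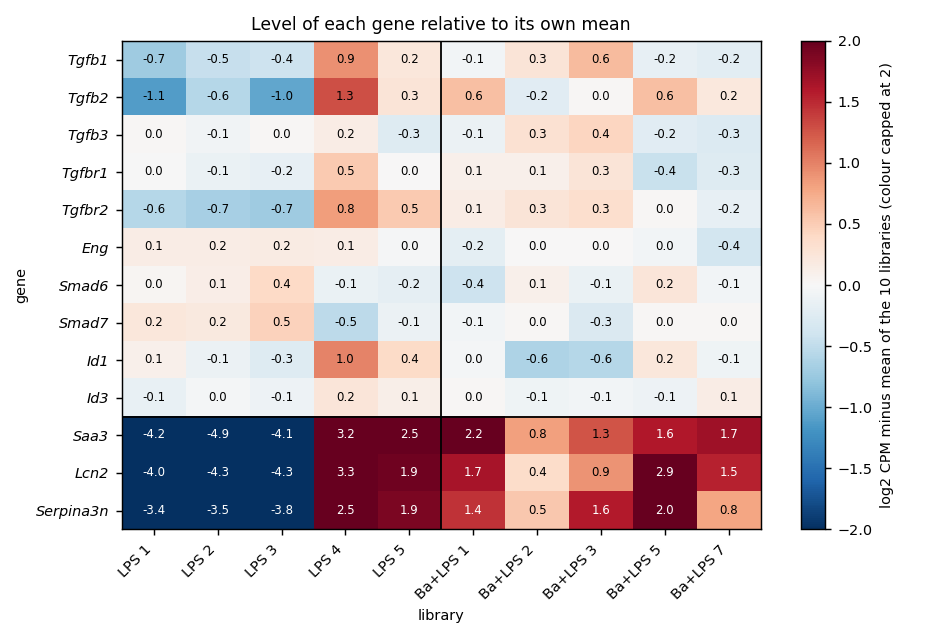
Level of each gene in each library as log2 CPM minus the gene's mean over the 10 libraries, with the acute-phase genes Saa3, Lcn2 and Serpina3n below the line. Tgfb1, Tgfb2 and Tgfbr2 are lowest in LPS libraries 1, 2 and 3, where the acute-phase genes are lowest too, while Eng, Tgfb3 and Id3 show no such step.

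LPS libraries 1, 2 and 3 were the 3 lowest of the 10 for Tgfb1, Tgfb2 and Tgfbr2, which is 3 of 10 genes, against 9.61% of all genes tested. They were the 3 highest for 1 of 10, Smad7, against 9.55% of all genes. Macrophage markers were placed alike, with 6 of 9 lowest in these libraries. Their sums were 194 to 531 CPM under LPS alone and 310 to 1304 CPM with baicalin. All 9 had positive fold changes, with a median of 0.88. The groups overlapped for each of the 9, and none passed the adjusted threshold in edgeR. An edgeR unadjusted p under 0.05 was found for 4 of 9 (44.4%), against 5.26% of all genes higher at that p. Of 9 neutrophil markers tested, 8 were lowest in LPS libraries 1, 2 and 3, with sums of 2.26 to 229 and 36.8 to 96.6 CPM. Platelet markers, of which 4 of 5 were measured, summed to 3.60 to 17.6 and 9.21 to 21.6 CPM, and 1 of the 3 tested was lowest there. The part of these cells in the Tgfb1 values was not tested. Among fibroblast markers 0 of 10 were lowest and 0 of 10 highest in LPS libraries 1, 2 and 3. Other markers were placed in reverse, with 5 of 8 for cardiomyocytes and 3 of 7 for smooth muscle cells and pericytes highest there. Of 12 endothelial markers 1 was lowest and 1 highest in these libraries.

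The inhibitory SMAD genes were low, and their highest library was 1.76 times (Smad6) and 1.98 times (Smad7) the lowest. Smad7, which blocks both branches by binding type I receptors (ENSMUSG00000025880, chromosome 18 from 75367529 to 75395935), had 8.99, 8.77, 10.6, 5.33 and 7.07 CPM in the LPS libraries and 7.40, 7.82, 6.28, 7.82 and 7.82 CPM with baicalin. LPS libraries 1, 2 and 3 were the highest of the 10 and LPS library 4 the lowest, the reverse of the order seen for Tgfb1, Tgfb2 and Tgfbr2. Its fold change was -0.13 ± 0.17 (edgeR adjusted p = 0.808), and 0.27 without LPS libraries 1, 2 and 3. Smad6, which acts mainly on the BMP branch (ENSMUSG00000036867, chromosome 9 from 63953076 to 64022059), had 7.76, 8.32, 9.97, 6.92 and 6.66 CPM and, with baicalin, 5.65, 8.12, 6.89, 8.98 and 7.29 CPM. No group stood out, with a fold change of -0.10 ± 0.16 (edgeR adjusted p = 0.845) that was 0.13 without LPS libraries 1, 2 and 3.

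Of the target genes, Id1 had the largest fold change of the 10 in size (ENSMUSG00000042745, chromosome 2 from 152736251 to 152737410). It had 29.0, 24.9, 22.6, 53.5 and 35.1 CPM in the LPS libraries and 26.4, 17.6, 18.2, 31.5 and 25.5 CPM with baicalin. LPS library 4 was the highest and baicalin plus LPS libraries 2 and 3 the lowest. The means were 33.0 ± 12.4 and 23.8 ± 5.88 CPM, a fold change of -0.47 ± 0.25 (edgeR adjusted p = 0.503). It was -0.23 without LPS library 4, -0.25 without baicalin plus LPS libraries 2 and 3, and -0.88 without LPS libraries 1, 2 and 3. Id3 (ENSMUSG00000007872, chromosome 4 from 136143497 to 136145755) was nearly level, at 18.1, 19.4, 18.6, 23.7 and 21.8 CPM and, with baicalin, 20.3, 18.8, 19.3, 18.6 and 22.1 CPM. The fold change was -0.04 ± 0.10 (edgeR adjusted p = 0.930), and it was 0.03 when scaled by library totals, so no direction is given for it.

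**Figure D3:**
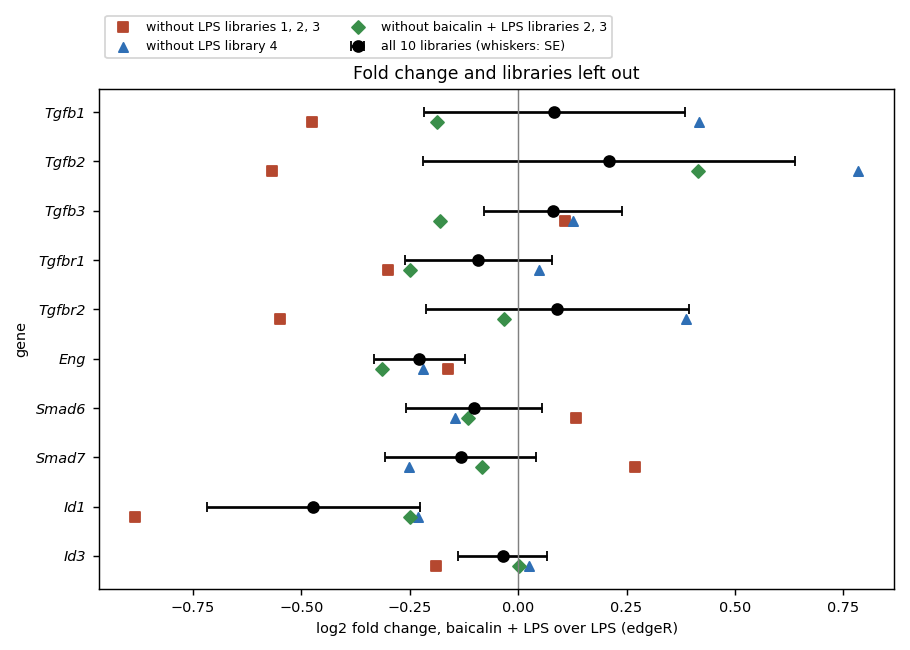
Log2 fold change of baicalin plus LPS over LPS from edgeR for the 10 genes, with the SE from all 10 libraries as whiskers and the values after leaving out the named libraries as coloured marks. Leaving out LPS libraries 1, 2 and 3 takes Tgfb1, Tgfb2 and Tgfbr2 below 0 and Smad6 and Smad7 above 0, while Eng and Id1 stay below 0 in all sets shown.

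Ratios of FPKM within a library do not depend on library scaling, and 6 were compared between the groups by a two-sided exact permutation test on log2 ratios, for which the smallest possible p is 0.00794. The pairs were chosen after the levels had been seen. Tgfbr2 to Tgfbr1 was 2.06, 2.12, 2.08, 3.81 and 4.35 in the LPS libraries and 3.13, 3.40, 3.21, 4.21 and 3.28 with baicalin (exact p = 0.206, adjusted over the 6 ratios 0.413). LPS libraries 1, 2 and 3 therefore had less type II relative to type I receptor transcript than each of the other 7. Eng to Tgfbr2 was 8.32, 9.01, 9.30, 3.14 and 3.49, and with baicalin between 4.03 and 4.83 (exact p = 0.175, adjusted 0.413). Tgfb1 to Tgfb3 was 0.918 to 2.57 in the LPS group and 1.46 to 1.74 with baicalin (exact p = 0.683, adjusted 0.819). Tgfb2 to Tgfb3 was 0.459 to 2.22 and 0.694 to 1.79 (exact p = 0.405, adjusted 0.607). Id1 to Id3 was 2.46 ± 0.636 and 1.86 ± 0.483 (exact p = 0.143, adjusted 0.413). Smad7 to Smad6 was 0.723 ± 0.104 and 0.727 ± 0.124 (exact p = 0.976, adjusted 0.976).

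Nearness of profiles was measured as the root mean square difference of mean-centred log2 CPM over the 10 libraries, among 9333 other genes of at least 5 CPM. Nearest to Tgfb1 were Cd302 (0.132), Shisa5 (0.134) and Etv5 (0.148), where the median gene was at 0.541, and the nearest of the 10 pathway genes was Tgfbr2 at 0.201. For Eng they were Vps9d1 (0.0422), Trim56 (0.0650) and Mycbp2 (0.0670), with a median of 0.287. The nearest of the 10 to Eng was Smad6 at 0.208, more than the 0.163 by which Eng deviated from its own mean. Id1 lay nearest to Lhx6 (0.0872), Tbl1xr1 (0.132) and Pvr (0.146), with a median of 0.485. Its nearest of the 10 was Id3 at 0.376, where Id1 deviated by 0.444 from its own mean.

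Beyond these 10 genes, 81 other pathway genes were listed by role, of which 75 were tested. None passed the adjusted threshold in edgeR or limma-voom, where 0% of all genes passed. DESeq2 called 1, against 1.06% of all genes. With sample quality weights 15 were called, where 17.6% of all genes were called. Fold changes were positive for 38 and negative for 37, with a median of 0.00. An unadjusted p under 0.05 was found for 9 of 75, or 12.0% against 11.1% of all genes. The groups did not overlap for 3 of 75, or 4% against 2.46% of all genes. Those 3 were Bmp6, Smad4 and Smurf2, all lower with baicalin.

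**Figure D4:**
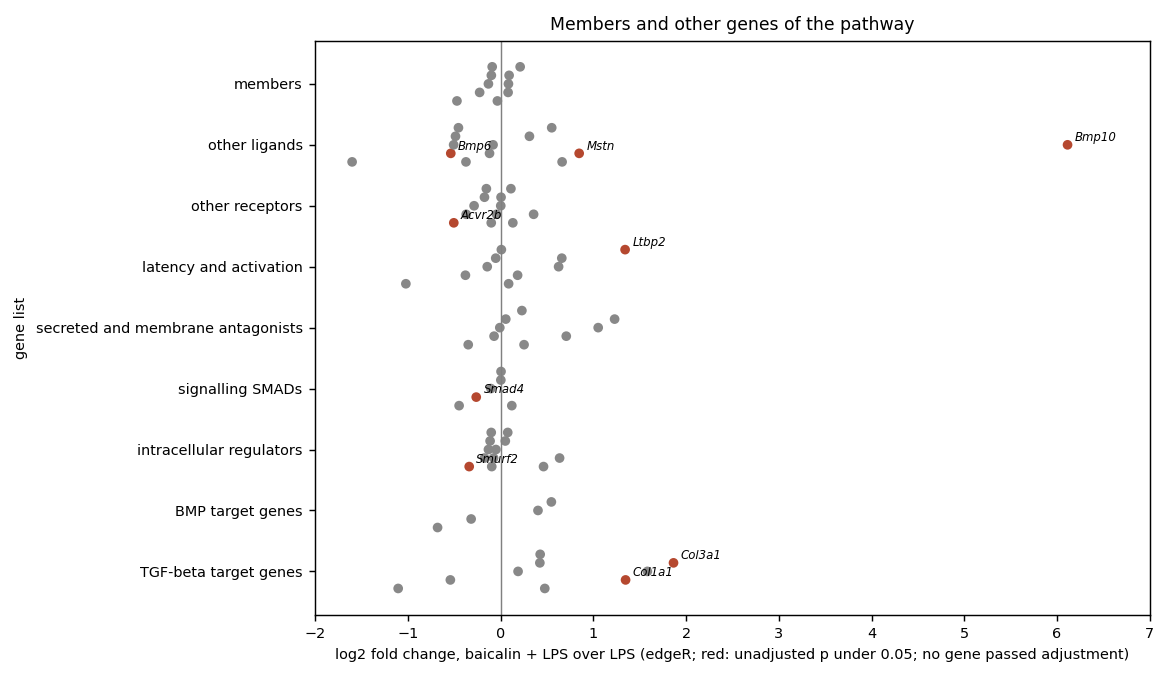
Log2 fold change of baicalin plus LPS over LPS for the 10 members and the 75 other pathway genes tested, grouped by role, with genes of unadjusted p under 0.05 in red. The points lie on both sides of 0 in every group, and Bmp10 at 6.11 is the farthest from 0.

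Among 13 other ligands tested, 5 had positive and 8 negative fold changes. Bmp6, a BMP ligand known from endothelium as an inducer of hepcidin in liver, had 38.1, 33.5, 30.4, 22.3 and 24.4 CPM in the LPS libraries and 21.4, 22.0, 20.9, 20.0 and 18.0 CPM with baicalin. The lowest LPS library lay only just above the highest baicalin library, and LPS libraries 1, 2 and 3 were the highest. Its fold change was -0.54 ± 0.15 (edgeR adjusted p = 0.299), and -0.18 without LPS libraries 1, 2 and 3. Bmp10, a ligand made by atrial cardiomyocytes in the adult heart, had 0.140, 0.345, 0.0765, 0.417 and 0.161 CPM in the LPS libraries and 0.454, 65.7, 12.1, 0.278 and 0.368 CPM with baicalin. Only baicalin plus LPS libraries 2 and 3 were high, and the fold change of 6.11 ± 1.60 (edgeR adjusted p = 0.299, DESeq2 adjusted p = 0.00384) was 0.68 without them (edgeR adjusted p = 0.725).

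Atrial muscle genes, chosen after the Bmp10 values had been seen, were high in the same libraries. Myl7, the atrial regulatory light chain, was at 132 and 27.7 CPM in these (libraries 2 and 3 with baicalin), against 0.527 to 2.23 CPM in the other 8. Sln, which encodes the calcium pump inhibitor sarcolipin, had 56.5 and 11.2 CPM there and at most 0.460 CPM elsewhere. Whether the amount of atrial tissue taken accounts for the Bmp10 values was not tested.

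**Figure D5:**
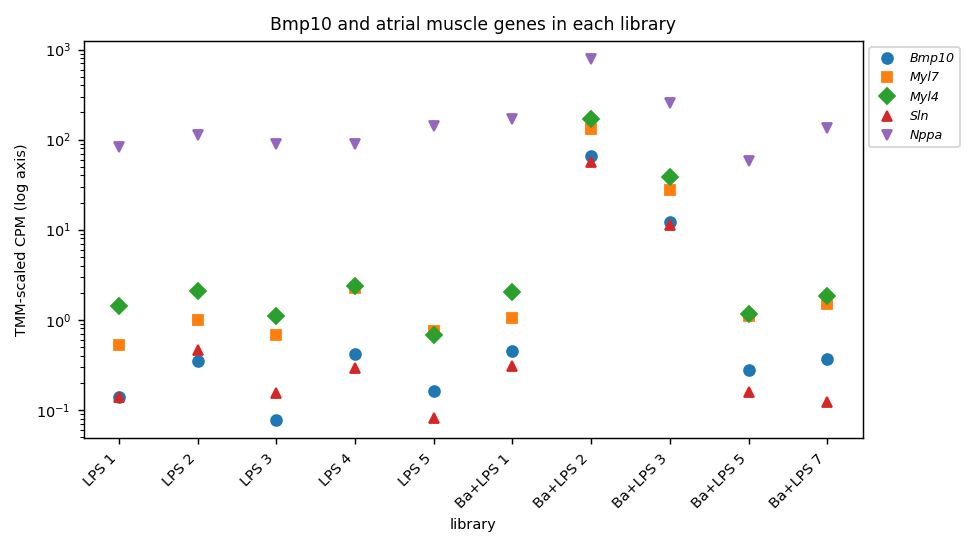
TMM-scaled CPM on a log axis of Bmp10 and 4 atrial muscle genes in each library. All 5 genes are highest in baicalin plus LPS library 2 and next highest in library 3.

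Among 12 other receptors tested, 5 had positive and 7 negative fold changes. Bmpr2, the BMP type II receptor, had 122 ± 7.88 and 122 ± 7.31 CPM, a difference of 0.00 ± 0.09 (edgeR adjusted p = 0.999). Acvrl1, the endothelial type I receptor ALK1 that binds BMP9 and BMP10 together with endoglin, had 25.6 ± 3.21 and 22.6 ± 1.01 CPM (-0.18 ± 0.10, edgeR adjusted p = 0.540). Tgfbr3, the co-receptor betaglycan, had -0.15 ± 0.10, the activin type II receptor gene Acvr2b -0.51 ± 0.20 at levels under 3 CPM, and the type I receptor gene Acvr1 0.35 ± 0.17. For none of these 5 did the groups separate. Without LPS libraries 1, 2 and 3, Acvr2b was at -0.24, Acvrl1 at -0.29 and Tgfbr3 at -0.096. Acvrl1 was at -0.095 without LPS library 4, and Acvr1 at 0.11 without baicalin plus LPS libraries 2 and 3.

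Of the 6 signalling SMAD genes, 3 had positive and 3 negative fold changes. The groups did not overlap for 1 of 6, against 2.46% of all genes. Smad4, the shared partner, had 35.4, 35.2, 37.6, 38.9 and 34.2 CPM in the LPS libraries and 30.3, 30.4, 31.6, 31.2 and 27.4 CPM with baicalin. Each LPS library was above each baicalin library, with means of 36.3 ± 1.94 and 30.2 ± 1.64 CPM and a fold change of -0.26 ± 0.08 (edgeR adjusted p = 0.301). Smad3, the TGF-beta branch SMAD, had 17.9 ± 3.59 and 17.9 ± 4.57 CPM. Smad1 had -0.45 ± 0.33 (edgeR adjusted p = 0.641), with 29.9 CPM in LPS library 4 and 8.31 to 13.0 CPM in the other 9 libraries, 0.02 without that library and -1.04 without LPS libraries 1, 2 and 3.

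Of 12 intracellular regulators tested, 4 had positive and 8 negative fold changes. Smurf2, a ubiquitin ligase that marks receptors and SMADs for degradation, had 44.9, 53.2, 47.5, 44.6 and 40.7 CPM in the LPS libraries and 38.0, 34.1, 39.3, 35.2 and 35.8 CPM with baicalin. The groups did not overlap, and the fold change was -0.34 ± 0.09 (edgeR adjusted p = 0.299), or -0.21 without LPS libraries 1, 2 and 3. The corepressor gene Tgif1 had 0.46 ± 0.21 (edgeR adjusted p = 0.451), 0.23 without LPS libraries 1, 2 and 3 and 0.29 without baicalin plus LPS libraries 2 and 3. Bmp6, Smad4 and Smurf2 kept a negative fold change in all alternatives tried, and passed the threshold only with sample quality weights.

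Genes of latency and of antagonists varied with particular libraries. Ltbp4, which encodes a latent TGF-beta binding protein of elastic fibres, had 259, 248 and 264 CPM in LPS libraries 1, 2 and 3, 56.7 and 56.9 CPM in LPS libraries 4 and 5, and 60.5, 146, 134, 42.8 and 52.0 CPM with baicalin. Its fold change of -1.02 ± 0.53 (edgeR adjusted p = 0.502) was 0.62 without LPS libraries 1, 2 and 3 and -1.77 without baicalin plus LPS libraries 2 and 3. Ltbp2, of the same family, was highest in baicalin plus LPS libraries 2 and 3 with 5.59 and 10.8 CPM, and reached at most 2.10 CPM elsewhere. Its fold change of 1.34 ± 0.57 (edgeR adjusted p = 0.413) was 0.61 without library 3 alone and -0.15 without both. Fstl1, a secreted follistatin-like protein, had 0.71 ± 0.36, and the BMP antagonist gene Chrdl1 1.23 ± 0.63 at levels under 3 CPM. Both were highest in baicalin plus LPS libraries 2 and 3, with 104 and 159 CPM for Fstl1 and 2.46 and 1.30 CPM for Chrdl1. Without these libraries Fstl1 was at 0.17 and Chrdl1 at 0.16. Leaving out only library 3 brought Fstl1 to 0.40, leaving out only library 2 brought Chrdl1 to 0.65, and without LPS libraries 1, 2 and 3 Fstl1 was at 0.30.

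TGF-beta target genes had 7 positive and 2 negative fold changes of 9 tested, with a median of 0.43, and none passed the threshold. Col3a1, a fibrillar collagen gene, had 34.7, 34.6, 29.3, 112 and 86.4 CPM in the LPS libraries and 159.7, 260.3, 532, 30.3 and 95.9 CPM with baicalin. Library 5 of the baicalin group lay below LPS libraries 1 and 2, so the groups overlapped. Its fold change was 1.86 ± 0.67 (edgeR adjusted p = 0.339), and that of Col1a1 1.35 ± 0.51 (edgeR adjusted p = 0.373). Both were highest in baicalin plus LPS libraries 2 and 3, without which Col3a1 was at 0.68 and Col1a1 at 0.46. Leaving out only library 3 gave 1.20 and 0.87, and leaving out LPS libraries 1, 2 and 3 gave 1.13 and 0.70. Fibroblast markers had 8 of 10 positive fold changes, with sums of 1033 to 1409 CPM in the LPS libraries and 683 to 1914 CPM with baicalin, and their part in the collagen values was not tested. BMP targets had 2 positive and 2 negative fold changes of 4 tested. Id2 had 0.40 ± 0.29 and Atoh8, an endothelial BMP target, -0.32 ± 0.21, and neither passed the threshold. Id2 was at 0.65 without LPS library 4, 0.21 without baicalin plus LPS library 2 and -0.026 without its libraries 2 and 3. Atoh8 was at -0.15 without LPS library 4, -0.60 without LPS libraries 1, 2 and 3 and -0.11 without baicalin plus LPS libraries 2 and 3.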

How the data were processed

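The 10 heart libraries were made from 1 µg of total RNA each after TRIzol extraction and an ABclonal mRNA library kit, per the labels' protocols. The genome build was mm10, per the submitters' processing notes, and the sources used here name no aligner, counting program, annotation or strand setting. The deposited count table holds whole-number counts for each gene, which from their values were not normalized by the authors. The deposited FPKM table was found to equal those counts divided by the library total and a fixed length for each gene, and served for levels between genes. A reference gene table named 31076 of 31655 IDs, and coordinates came from the GENCODE annotation of GRCm38. Between 61.6% and 64.7% of counts from 1 to 50 were even numbers; what was counted is not stated, and intervals between libraries rest on their spread, not on counting error.

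Counts were tested with edgeR 4.0.16 (TMM factors, robust quasi-likelihood F test, filterByExpr) in R 4.3.3 over 16850 genes, with 0 covariates, two-sided, Benjamini-Hochberg adjusted over all genes, at a threshold of 0.05. The SE is the fold change divided by the square root of F. CPM values are TMM-scaled. Ratios were tested with scipy 1.17.1. Alternatives were other scalings, filters, DESeq2 1.42.0, limma 3.58.1 and sets of libraries. Only the edgeR fit was tested on simulated counts. These had the same dispersion for all genes and no split among the libraries of a group, unlike the LPS libraries here. Members, lists and the rule for named genes (all members, the 2 genes of smallest p in each of 8 role lists, 8 genes set by name, of which 4 were also among those, and the 3 nearest profiles to Tgfb1, Eng and Id1) were chosen with earlier results of these data known.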

Additional observations from a re-analysis of the deposited data

Results flagged for a closer look

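In 72 groups of 5 values, 9 had a highest or lowest library whose gap to the next exceeded Dixon's 95% limit for 5 values (0.71 of the range). Chance flags about 1 in 20 groups. LPS library 4 stood high among LPS libraries for Tgfbr1 (29.4 CPM), Smad1 (29.9 CPM), Acvrl1 (31.2 CPM) and Smad3 (24.1 CPM), and low for the FPKM ratio of Smad7 to Smad6 (0.547). It was also the LPS library with the most Saa3. LPS library 5 was low for Eng (193 CPM). In the baicalin plus LPS group, library 2 was high for Bmp10 (65.7 CPM), library 3 low for Smad7 (6.28 CPM), and library 5 high for the FPKM ratio of Tgfbr2 to Tgfbr1 (4.21).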

How the results depend on the processing

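No setting but limma-voom with sample quality weights called any of the 10 genes. That one called 3 of them (Tgfb2 at 1.09, Tgfbr2 at 0.66 and Eng at -0.30), 15 other pathway genes and 2974 of all genes, with weights of 2.33 to 3.17 for LPS libraries 1, 2 and 3 and 0.160 for LPS library 4. DESeq2 called 1 other pathway gene (Bmp10) and 199 of all genes, and edgeR with no filter on low counts called 2 of all genes. Leaving out each library in turn left all 3 counts at 0, while genes of unadjusted p under 0.05 ran from 1282 (without LPS library 3) to 3112 (without LPS library 4). Over 30 genes, 55 of 718 values changed sign and 0 calls were lost, since none was made. Where a sign changed, the cause was not tested.

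All values are log2 differences. Without LPS libraries 1, 2 and 3 the sign changed for Tgfb1 (-0.48), Tgfb2 (-0.57), Tgfbr2 (-0.55), Smad6 (0.13), Smad7 (0.27), Ltbp4 (0.62), Id2 (-0.025), Bmpr2 (-0.0098) and Smad3 (-0.21), and for the ratios Tgfbr2 to Tgfbr1 (-0.25), Tgfb1 to Tgfb3 (-0.57), Tgfb2 to Tgfb3 (-0.61) and Eng to Tgfbr2 (0.38). Without baicalin plus LPS libraries 2 and 3 it changed for Tgfb1 (-0.19), Tgfb3 (-0.18), Tgfbr2 (-0.033), Id3 (0.0017), Ltbp2 (-0.15), Id2 (-0.026) and Smad3 (-0.28). With quality weights it changed for Tgfbr1 (0.060), Id3 (0.087) and Smad1 (0.085). Id3 was also positive by library totals (0.031) and in limma on log2(FPKM + 0.1) (0.049) and log2(FPKM + 1) (0.044). Bmpr2 and Smad3, both near 0, turned negative with DESeq2 size factors (-0.00072 and -0.00056), no filter (-0.0059 and -0.0015) and the DESeq2 test (-0.0015 and -0.0010).

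Leaving out each library in turn gave ranges of -0.077 to 0.42 for Tgfb1, -0.033 to 0.15 for Tgfb3, -0.17 to 0.047 for Tgfbr1, -0.041 to 0.39 for Tgfbr2, -0.079 to 0.025 for Id3, -0.58 to 0.023 for Smad1, -0.030 to 0.027 for Bmpr2 and -0.10 to 0.13 for Smad3. The ratio of Tgfb1 to Tgfb3 ran from -0.046 to 0.33, that of Smad7 to Smad6 from -0.093 to 0.060 and that of Id1 to Id3 from -0.54 to -0.27.

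The groups share the numbers 1, 2, 3 and 5, but same-numbered libraries did not deviate together (correlations from -0.104 to 0.0762) and 0 of 4 LPS libraries correlated best with their own number, so the numbers are not read as pairs. With the replicate number as a block over these 8 libraries 0 genes were called; signs changed for Tgfbr1 (0.082), Smad1 (0.091) and Bmpr2 (-0.030), as they did in the same 8 libraries without the block (0.10, 0.086 and -0.031), a setting chosen after seeing the data.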

Other observations

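Inhbb, which encodes the inhibin beta B chain of activin B, had 1.19, 1.61 and 1.45 CPM in LPS libraries 1, 2 and 3, 88.8 and 22.5 CPM in LPS libraries 4 and 5, and 5.73, 2.28, 2.45, 20.7 and 6.90 CPM with baicalin (a log2 fold change of -1.60 ± 1.17, edgeR adjusted p = 0.637). Hey1, a target shared by BMP and Notch signalling, ran the other way among the LPS libraries, with 9.83, 9.27, 9.86, 0.792 and 2.61 CPM. With baicalin it had 2.73, 6.12, 5.57, 2.36 and 3.35 CPM, highest in libraries 2 and 3. Postn, a matrix gene of activated fibroblasts, was highest with baicalin in libraries 2 and 3, at 58.5 and 141 CPM, and reached at most 25.0 CPM elsewhere. These 3 genes were chosen after their values had been seen, and for each the edgeR test did not pass the threshold.

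Tagln, a smooth muscle gene known as a TGF-beta target, was listed at 0.0834 to 0.324 CPM, although Acta2, another smooth muscle gene, had 81.8 to 310.2 CPM in the same libraries.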
